A study of Mus musculus with 36 samples.

Results

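Late and early reprogramming were compared in mouse cardiac fibroblasts that had received the transcription factors Gata4, Mef2c and Tbx5. The late libraries came from days 14 and 21 and the early libraries from days 2 and 3, with 6 libraries in each pool and 12 in all, of 36 in the series, of which 18 have a column in the table. Members were chosen by the day named in each library's title. All 12 come from cells of neonatal hearts of Cd-1 mice that carry an alpha-MHC-GFP reporter, in which a cardiac myosin promoter drives green fluorescence. Thy1-positive, GFP-negative cells grown out of heart explants were infected with retroviruses for the 3 factors and kept with sb431542, which blocks TGF-beta signalling, and xav939, which blocks Wnt signalling. At each day only GFP-positive cells were sorted and measured, so the comparison describes cells in which the reporter was on at that day. Days 14, 21, 2 and 3 have 3 libraries each. A further 3 libraries of day 7, treated in the same way, and 3 of fibroblasts infected with dsRed, given neither inhibitor and sorted for dsRed at day 7, entered the fit but no contrast between the pools. The labels call the replicates biological without saying which animals or cultures they came from.

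Gata4, Mef2c and Tbx5 bind enhancers and promoters of heart genes and, delivered together, turn part of a fibroblast culture into cells with features of heart muscle. ATAC-seq cuts and tags DNA where it is not covered by nucleosomes, so reads pile up at active promoters and enhancers. A region that gains reads over time, relative to the rest of the library, may have become accessible in more of the cells or more open in each. In bulk libraries these cannot be told apart.

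The values are reads per region, given as CPM, which are counts for each mega (M) of counts in the library, with library sizes scaled by trimmed means of log ratios. Library totals ran from 4.82 to 21.4 M counts at days 14 and 21 and from 2.29 to 23.2 M at days 2 and 3. A single region of chromosome 1 (24618407 to 24622986) took 5.35 to 31.4% of counts in the late libraries and 4.52 to 35.4% in the early ones. Fibroblast replicates 1 and 2 stand apart from both pools, with 49.4 and 49.3% of counts there and scaling factors of 0.632 and 0.638, while replicate 3 had 14.5% and 1.19; their part in the fibroblast levels given here was not tested beyond the scaling by library totals. The late and early pools did not differ detectably in total counts, in this share, in the share of counts in tested peaks, in the share in tested peaks of 3000 bases or more, or in scaling factor. Exact two-sided permutation tests of 6 libraries against 6, over these 5 measures, gave p from 0.498 to 0.870 (0.870 for each after Benjamini-Hochberg adjustment), where 0.00216 is the smallest p possible. Libraries of days 2 and 3 with replicate number 1 stood apart on the second principal component, and day 14 replicate 3 on the third. The shallowest libraries of the early pool are these 2 with number 1, at 2.29 and 2.95 M counts. The marker genes of the labelled cell type were not checked, because the regions are not tied to genes here.

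At days 14 and 21, 3627 peaks were more accessible and 5304 less accessible than at days 2 and 3, among 144810 peaks tested. These are 2.5 and 3.66% of all peaks, 6.17% together (edgeR quasi-likelihood test, Benjamini-Hochberg adjusted p under 0.05). The higher peaks had a median log2 fold change of 1.05 (quartiles 0.86 and 1.28) and the lower ones a median of -0.9998 (quartiles -1.22 and -0.83), where the median of all peaks was 0.032. A fold change of at least 2 was reached by 2077 of the higher (57.3%) and 2650 of the lower peaks, and one of at least 4 by 62 higher and 88 lower peaks. All 6 late libraries lay above all 6 early ones at 1174 of the higher peaks (32.4% of them and 0.811% of all tested), and all 6 lay below at 2115 of the lower peaks (39.9% and 1.46%). Over all peaks tested, called or not, the pools did not overlap at 1728 on the higher side (1.19%) and 2681 on the lower side (1.85%). At an unadjusted p under 0.05 in edgeR there were 28752 of the 144810 peaks, where no difference would give a share of about 0.05. Without the early libraries numbered 1 the counts were 3903 higher and 5445 lower, and without day 14 replicate 3 they were 3662 and 4986. They fell by over 1.5 times without day 14 replicate 1, the deepest library of its day (1847 higher and 3285 lower), and on the higher side without day 2 replicate 3 (2400 higher and 3936 lower). They also fell with library totals alone as scaling (1447 and 2608), with no filter on low counts (165 and 327), and with days 2 and 3 summed by replicate number (1825 and 3335), an alternative chosen after seeing the data.

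**Figure D1:**
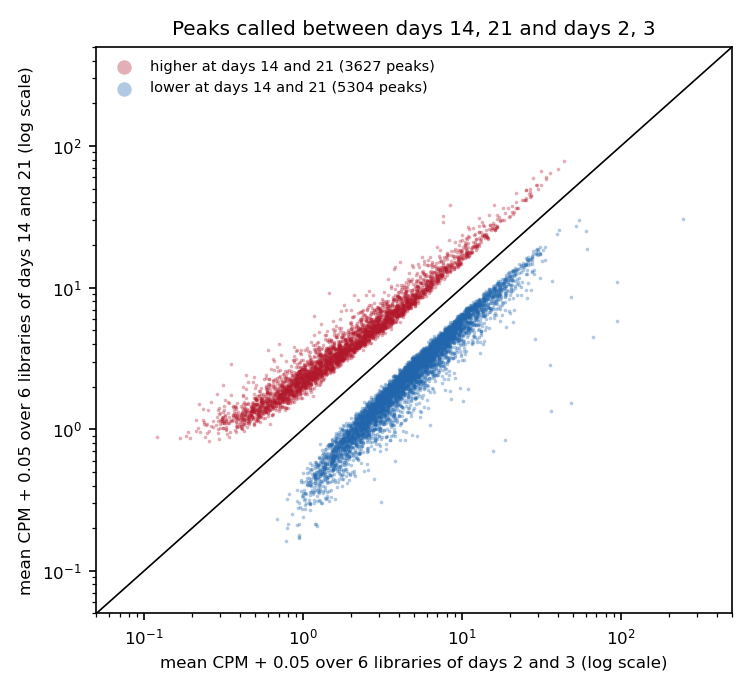
Mean CPM at days 14 and 21 (vertical) against mean CPM at days 2 and 3 (horizontal), both plus 0.05 on log axes, for each peak that passed the test; the line marks equal levels. The 3627 higher peaks lie above the line and the 5304 lower peaks below it, and a few lower peaks lie far from the rest.

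No peak passed the test between the 2 days of a pool. Day 21 against day 14 and day 3 against day 2 both gave 0 called peaks in edgeR (0% of peaks), with 4757 and 5247 peaks at an unadjusted p under 0.05. Both are below a share of 0.05 of the 144810 peaks tested, which is about what no difference would give. Between single days of the 2 pools, day 14 against day 2 gave 3048 calls (2.1%), day 21 against day 2 gave 2090 (1.44%), day 21 against day 3 gave 596 (0.412%) and day 14 against day 3 gave 431 (0.298%), which were 145 higher (0.1%) and 286 lower (0.198%). Of the peaks called between the pools, 60.0% of the higher and 57.8% of the lower were called in none of these 4 comparisons of 3 libraries against 3. With day 3 alone as the early group the pooled late libraries gave 547 higher and 1441 lower peaks, and with day 2 alone 1839 and 3515.

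Comparisons that share no library were therefore read side by side. Of 1167 peaks (0.806% of those tested) called higher at day 14 than at day 2, 1084 (92.9%) had a positive log2 fold change for day 21 over day 3, against 51.2% of all peaks. Of 1881 peaks (1.3%) called lower, 1791 (95.2%) were negative there, against 48.8% of all peaks. The median log2 fold change of the rising peaks was 1.60 where they were chosen and 0.69 in the other pair, and that of the falling peaks was -1.46 and -0.73. The test itself was also passed in the other pair by 103 of the 1167 (8.83%, against 0.163% of all peaks) and by 195 of the 1881 (10.4%, against 0.249%). In the second pairing, the 829 peaks called higher at day 21 than at day 2 (0.572% of those tested) were positive for day 14 over day 3 in 98.2% of cases, against 52.3% of all peaks. The 1261 called lower (0.871%) were negative in 98.9%, against 47.7%. Both pairings came from the same fit, with its shared scaling and spread. Libraries of days 2 and 3 also deviated together in part, with a correlation of deviations of 0.321 between the replicates numbered 1. The early sides of the comparisons may therefore not be independent. Without these early libraries numbered 1 the shares of the first pairing were 87.1% for rises and 91.0% for falls.

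At the called peaks the day 7 medians lay between those of the pools, and fibroblasts sat at different places for rises and falls. The higher peaks had a median of 1.43 CPM in fibroblasts, 1.52 at day 2, 1.87 at day 3, 2.87 at day 7, 3.64 at day 14 and 3.53 at day 21. Fibroblasts were thus near the early level, and lay below the means of both pools at 54.2% of the higher peaks, between them at 37.2% and above both at 8.60%. The lower peaks had a median of 2.42 CPM in fibroblasts, 4.75 at day 2, 4.24 at day 3, 3.06 at day 7, 2.15 at day 14 and 2.26 at day 21. They were most accessible at day 2, and the fibroblast median was near the late medians. Peak by peak this was mixed, as the fibroblast mean was below both pools at 46.0%, between them at 29.1% and above both at 24.9% of the lower peaks. Over all peaks tested these shares were 43.7, 17.7 and 38.6%, so the share of lower peaks with fibroblasts below both pools was near that of all peaks. The fibroblast level depends on the scaling: with library totals alone fibroblasts were below both pools at 73.3% of the higher peaks, 57.8% of the lower peaks and 62.9% of all peaks, and their medians were 1.14 and 2.01 CPM at the higher and lower peaks. The choice of peaks fixed the difference between the pools, which by itself makes it likelier for another group to lie between their means. The contrast held neither the fibroblast nor the day 7 libraries, but both entered the fit that gave the calls, in its scaling, filter and spread; with the 12 libraries of the pools alone 2828 peaks were higher and 4491 lower.

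**Figure D2:**
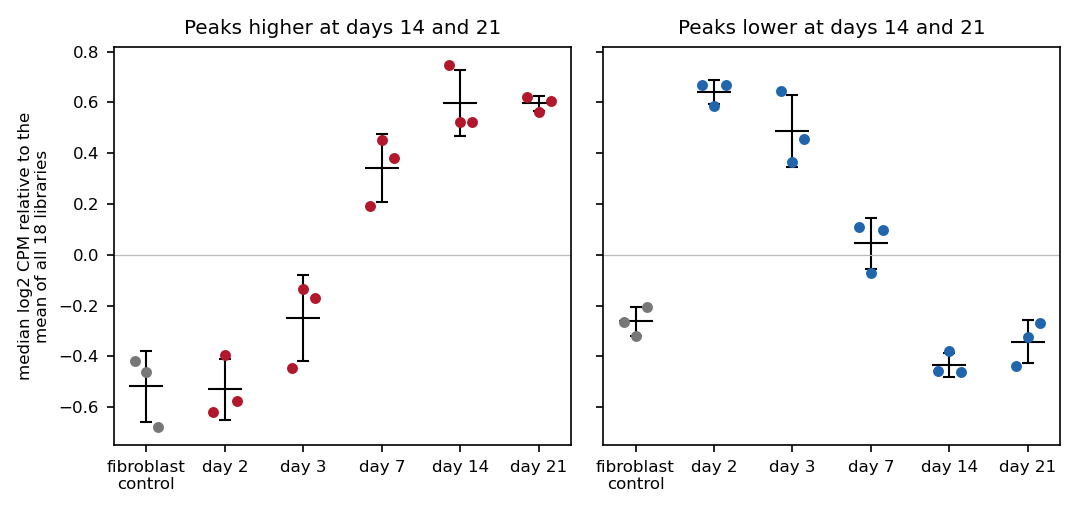
Median log2 CPM over the 3627 higher (left) and 5304 lower (right) peaks, relative to each peak's mean over all 18 libraries. Each point is a library, and bars give the mean and SD of 3. Day 7 lies between the pools in both panels, while the fibroblasts lie near days 2 and 3 on the left and near days 14 and 21 on the right.

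Day 7 was placed on the way from the early mean (0) to the late mean (1) of log2 CPM at each called peak. The median over the higher peaks was 0.609, 0.878 and 0.823 in the 3 day 7 libraries, a mean of 0.770 ± 0.142 (SD, n = 3). Over the lower peaks it was 0.449, 0.627 and 0.444, a mean of 0.507 ± 0.104. With library totals alone as scaling these means were 0.557 and 0.753, so which direction was further along at day 7 depends on the scaling. The mean CPM of day 7 lay between those of the pools at 80.2% of the higher and 89.3% of the lower peaks, and past the late mean at 18.2 and 6.98%. The choice of peaks whose pools lie apart favours this, and the day 7 share over all tested peaks was not computed. Fibroblasts too lay between more often at the called peaks, at 37.2 and 29.1%, than at all peaks, at 17.7%. On the same scale, the medians of the fibroblast libraries averaged -0.058 ± 0.142 for the higher peaks and 0.842 ± 0.0639 for the lower ones (SD, n = 3). Single peaks were widely scattered around these medians. In fibroblast replicate 1 the quartiles were -0.648 and 0.602 over the higher peaks, and 0.0387 and 1.65 over the lower ones.

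The 10 rises of largest fold change among peaks with no overlap of the pools and an average log2 CPM of at least 1 lay on 6 chromosomes and had log2 fold changes from 1.88 to 2.53. The largest was on chromosome 14 at 55578284 to 55580442, where the lowest, median and highest values were 6.18, 8.10 and 14.1 CPM at days 14 and 21, against 0.527, 1.497 and 2.09 CPM at days 2 and 3. Its log2 fold change was 2.53 (SE 0.23, edgeR adjusted p 4.28e-12), a 5.76-fold difference, and day 7 stood between the pools at 4.81 ± 0.553 CPM (SD, n = 3). Fibroblasts had 2.23 ± 0.250 CPM there, close to the early libraries.

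The second rise, on chromosome 12 at 105491235 to 105495600, was the most accessible of the 10, with 25.3, 35.4 and 62.5 CPM at days 14 and 21, against 4.16, 8.36 and 14.3 CPM at days 2 and 3. Its log2 fold change was 2.16 (SE 0.29, edgeR adjusted p 6.32e-06). Fibroblasts had 19.8, 17.6 and 50.45 CPM in replicates 1, 2 and 3, all above every early library, so this region was low at days 2 and 3 and near the fibroblast range at days 14 and 21.

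On chromosome 11, the peak at 59697429 to 59698321 had 3.23, 3.98 and 4.04 CPM at days 14 and 21, against 0.320, 0.929 and 1.34 CPM at days 2 and 3 (log2 fold change 2.04, SE 0.29, edgeR adjusted p 2.66e-06). It had 0.351 ± 0.423 CPM in fibroblasts (SD, n = 3), so it was low in control fibroblasts and at days 2 and 3. The peak at 29559699 to 29560736 on chromosome 17 had 6.65, 10.3 and 10.7 CPM at days 14 and 21, against 1.02, 2.36 and 3.72 CPM at days 2 and 3, and 0.0912 ± 0.158 CPM in fibroblasts. Its log2 fold change was 1.88 (SE 0.23, edgeR adjusted p 6.74e-08), and it was lowest in fibroblasts, higher at days 2 and 3 and highest at days 14 and 21. The other 6 rises lie on chromosome 15 at 32728314, 83602423 and 86641516, on chromosome 12 at 9231380, on chromosome 1 at 72913766 and on chromosome 11 at 98238474. Their log2 fold changes were 1.88 to 1.99 with adjusted p from 6.03e-08 to 1.04e-05 in edgeR. For all 10, day 7 lay between the pools, and fibroblasts were below the early mean at 7.

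**Figure D3:**
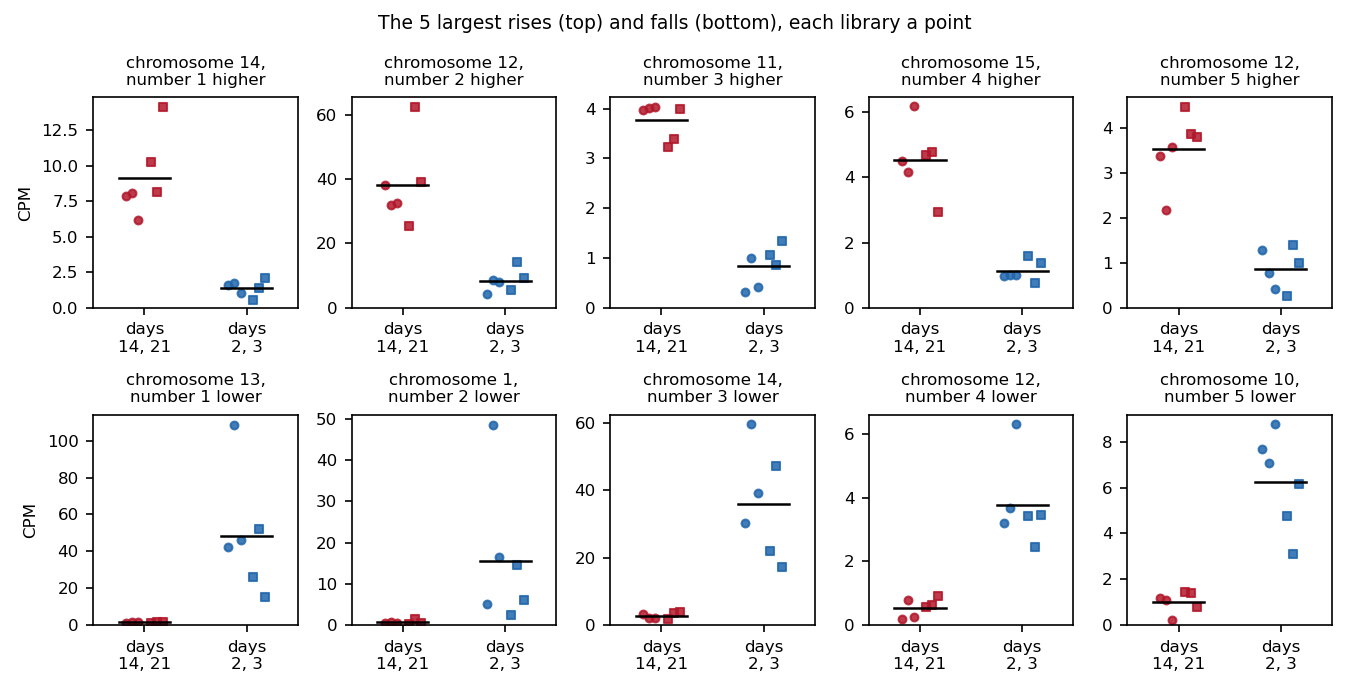
CPM of each of the 12 libraries at the 5 largest rises (top row) and the 5 largest falls (bottom row). Red points are days 14 (circles) and 21 (squares), blue points days 2 (circles) and 3 (squares), and lines are means of 6; each panel has its own scale from 0. No late library overlaps an early one, and the early libraries of the first 3 falls are spread widely.

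The most accessible of the called rises changed less. The 5 with the highest average level had log2 fold changes from 0.76 to 1.09 and were 2823 to 3515 bases wide. The strongest change was on chromosome 14 at 52531996 to 52535511, with 44.4, 67.5 and 83.6 CPM at days 14 and 21, against 13.5, 33.2 and 46.9 CPM at days 2 and 3 (log2 fold change 1.09, SE 0.24, edgeR adjusted p 0.00231). Here the pools overlap, and the early libraries numbered 1, at 13.5 and 15.6 CPM, are the lowest. Fibroblasts had 41.6 ± 3.50 CPM (SD, n = 3), between the pool means. The others, at 135973889 and 196801987 on chromosome 1, 109510345 on chromosome 11 and 55893041 on chromosome 16, had log2 fold changes from 0.76 to 0.85 with adjusted p from 0.0160 to 0.0422 in edgeR. Day 7 was above the late mean at all 5. Without the early libraries numbered 1 the 5 changes were 0.44 to 0.78, with adjusted p from 0.000124 to 0.0477 in edgeR. Each of the 5 lost its call under at least one other alternative, day 3 alone as the early group among them.

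The largest named falls exceeded the largest named rises in fold change. Over all called peaks the sizes were alike, with a median log2 fold change of 1.05 for rises and -0.9998 for falls. The largest fall was on chromosome 13 at 83772366 to 83773128, which had 1.11, 1.44 and 1.90 CPM at days 14 and 21, against 15.2, 44.2 and 108.7 CPM at days 2 and 3. Its log2 fold change was -4.95 (SE 0.32, edgeR adjusted p 1.42e-14). Fibroblasts were low there too, at 0.620 ± 0.429 CPM (SD, n = 3), and day 7 stood at 3.70 ± 2.00 CPM, so signal was high at days 2 and 3 and low at days 14 and 21, at day 7 and in control fibroblasts. The peak at 63822054 to 63822711 on chromosome 14 had the same course, with 1.90, 2.72 and 3.74 CPM at days 14 and 21, against 17.4, 34.8 and 59.7 CPM at days 2 and 3 (log2 fold change -3.63, SE 0.25, edgeR adjusted p 7.67e-17) and 0.745 ± 0.0669 CPM in fibroblasts.

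These peaks belong to a pair of short stretches in which a few peaks fell and most of their neighbours did not pass the test. Of 18 tested peaks on chromosome 13 from 83730819 to 83802523, 7 fell by at least 1.5 on the log2 scale (-4.95 to -2.51), 1 of the other 11 was called lower, and the median log2 fold change of those 11 was -0.24. Of 22 tested peaks on chromosome 14 from 63819108 to 63860065, 4 fell by as much (-3.63 to -1.69), none of the other 18 was called, and their median was 0.09. Both stretches were chosen after their values were seen, as the only groups of such falls within 50 kb that held a log2 fold change of -3 or below. Summed over the 7 peaks of chromosome 13, the levels were 15.4 ± 2.64 CPM in fibroblasts, 435.2 ± 181 at day 2, 247 ± 140.4 at day 3, 48.8 ± 15.9 at day 7, 28.1 ± 4.79 at day 14 and 25.0 ± 2.03 at day 21 (SD, n = 3 each). Summed over the 4 peaks of chromosome 14, they were 12.7 ± 0.948, 475 ± 259, 354 ± 266, 92.5 ± 11.02, 53.2 ± 16.6 and 57.6 ± 2.53 CPM. Single libraries ran from 22.6 to 31.1 CPM at days 14 and 21 and from 121 to 644 CPM at days 2 and 3 on chromosome 13, and from 37.1 to 70.3 CPM and from 125 to 693 CPM on chromosome 14, so the early libraries were far more spread than the late ones. The strongest peak of these, at 63858329 to 63860065 on chromosome 14, had 21.4, 30.2 and 40.8 CPM at days 14 and 21, against 28.5, 284.5 and 430.6 CPM at days 2 and 3 (log2 fold change -3.0, SE 0.55, edgeR adjusted p 0.00447). Its early libraries numbered 1 had 46.7 and 28.5 CPM and the other early ones at least 202.5, so that one of the libraries numbered 1 lay within the late range, the other just above it and the remaining early ones far above it. In the RefSeq annotation of GRCm38.p6, another build than that of the table, the genes of the delivered factors Mef2c and Gata4 lie on chromosomes 13 and 14. Overlap of these peaks with them was not established, and the counts cannot tell chromatin reads apart from those of the delivered sequences.

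Other falls lay outside these stretches. On chromosome 1, the narrow peak at 173411591 to 173411987 had 0.334, 0.502 and 1.39 CPM at days 14 and 21, against 2.37, 10.4 and 48.7 CPM at days 2 and 3 (log2 fold change -4.58, SE 0.67, edgeR adjusted p 0.00147), with day 2 replicate 2 far above the rest. On chromosome 13, the peak at 59561907 to 59563751 had 1.45, 1.77 and 2.64 CPM at days 14 and 21, against 8.82, 10.4 and 13.5 CPM at days 2 and 3 (-2.45, SE 0.22, edgeR adjusted p 2.02e-12). Its early libraries lay close together, unlike those of the largest falls, and fibroblasts had 3.44 ± 2.33 CPM (SD, n = 3). The peak at 92805468 to 92806992 on chromosome 10 had 0.238, 1.14 and 1.45 CPM at days 14 and 21, against 3.11, 6.61 and 8.76 CPM at days 2 and 3 (-2.54, SE 0.27, edgeR adjusted p 3.57e-10). With 5.94 ± 2.28 CPM in fibroblasts it was the one of the 10 falls of largest fold change at which every fibroblast library lay within the early range. At all 10 falls of largest fold change the fibroblast mean was below the early mean and day 7 lay between the pools. The remaining 5, on chromosome 12 at 17012062, chromosome 17 at 29473279, chromosome 1 at 155010548, chromosome 10 at 77078568 and chromosome 14 at 70950003, had log2 fold changes from -2.80 to -2.37. All 10 rises and all 10 falls of largest fold change kept their call in each of 27 alternative settings. Their choice as called peaks with no overlap of the pools favoured this. The settings of an adjusted p under 0.01 and of a minimum fold of 1.5 were not among the 27.

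Among the 5 called falls of highest level, the other three outside the stretches were broad and had smaller changes. The peak at 35334859 to 35339931 on chromosome 14 had 19.1, 20.9 and 34.8 CPM at days 14 and 21, against 26.9, 60.6 and 86.75 CPM at days 2 and 3 (log2 fold change -1.28, SE 0.24, edgeR adjusted p 0.000287). Fibroblasts had 4.41 ± 1.21 CPM (SD, n = 3), so this region stayed above the fibroblast level in every late library. The peak at 106781755 to 106785155 on chromosome 12 had 17.6, 28.9 and 32.6 CPM at days 14 and 21, against 47.2, 51.0 and 58.7 CPM at days 2 and 3 (-0.94, SE 0.22, edgeR adjusted p 0.00430), with no overlap of the pools. At 67551966 to 67556127 on chromosome 10, 19.2, 31.5 and 41.4 CPM at days 14 and 21 overlapped the 24.3, 46.4 and 93.9 CPM of days 2 and 3 (-0.85, SE 0.25, edgeR adjusted p 0.0263), and 16 of the 27 alternatives ended this call.

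Most called peaks had no called neighbour of the same direction within 20 kb. Called peaks of one direction were joined into stretches where the gap was at most 20 kb, which left 2492 of the 3627 higher peaks (68.7%) and 3188 of the 5304 lower peaks (60.1%) alone. Only 2.5 and 3.66% of tested peaks were called, and the share that scattered calls would leave alone was not computed. Neither isolation nor clustering is therefore read from these shares. Stretches of at least 5 called peaks numbered 19 on the higher and 53 on the lower side. The calls chose the stretches, so the sums below, over all tested peaks between the first and last called one, are a description with no test.

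The stretch with the most rises spans 78.4 kb of chromosome 14, from 55550759 to 55629112, with 21 of 27 tested peaks called higher and none lower. The sums were 211, 375 and 499 CPM (lowest, median and highest library) at days 14 and 21, against 132, 185 and 269 CPM at days 2 and 3. Its first 15 tested peaks, up to 55580442, were all called, with log2 fold changes from 1.18 to 2.76, while calls further on alternated with peaks that did not pass. The strongest peak of the stretch, at 55584482 to 55587987, averaged 206 CPM at days 14 and 21 and 136 CPM at days 2 and 3 (log2 fold change 0.62, edgeR adjusted p 0.142), and only 12.5 CPM in fibroblasts. The sum was 49.9 ± 8.37 CPM in fibroblasts, 167 ± 31.8 at day 2, 222 ± 77.6 at day 3, 378 ± 20.9 at day 7, 321 ± 95.8 at day 14 and 402 ± 91.4 at day 21 (SD, n = 3 each). In the same RefSeq annotation, Myh6, the gene of the cardiac myosin named by the reporter, and Myh7, which encodes another cardiac myosin heavy chain, lie on chromosome 14. Whether the stretch overlaps them was not established, and the counts do not separate reads of the reporter construct from reads of the genome.

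**Figure D4:**
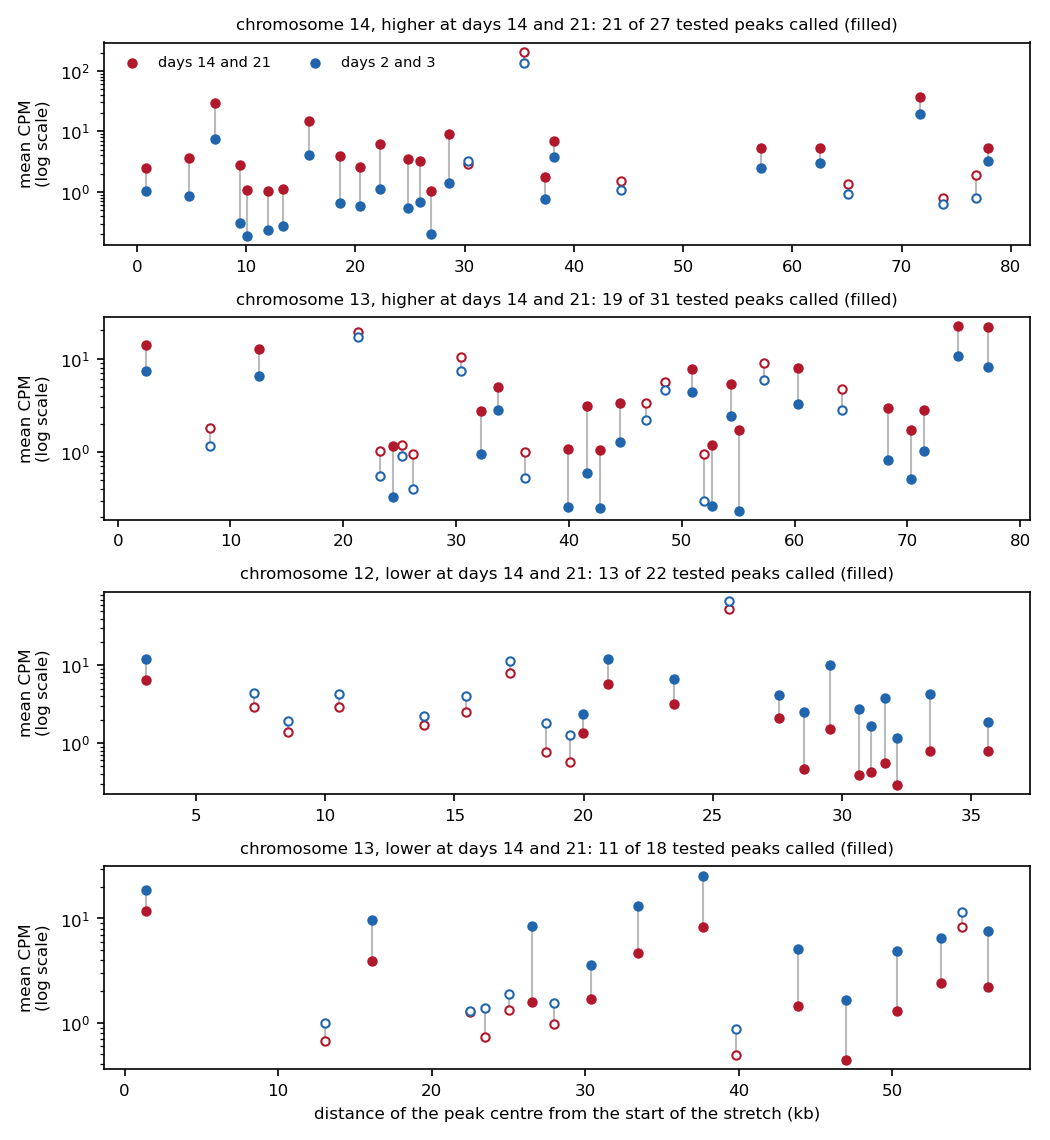
Mean CPM on a log axis at days 14 and 21 (red) and days 2 and 3 (blue) for every tested peak of 4 stretches, by distance of the peak centre from the start of the stretch in kb. Filled points are peaks called in the direction of the stretch and open points are not called. The first 15 peaks of the chromosome 14 stretch are filled, and strong open peaks with small differences stand among the called ones.

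A stretch of chromosome 13 from 12355430 to 12433700 had 19 of 31 tested peaks called higher. Its sums were 104, 175 and 266 CPM at days 14 and 21, against 76.8, 93.1 and 120 CPM at days 2 and 3, and 53.2 ± 2.49 CPM in fibroblasts (SD, n = 3). On chromosome 1 from 72900519 to 72939450, 12 of 16 tested peaks were higher, with 58.9, 110 and 129 CPM at days 14 and 21, against 26.9, 39.0 and 51.1 CPM at days 2 and 3. No late library was within the early range there, and fibroblasts, at 43.6 ± 1.18 CPM, were. The next 2 stretches, on chromosome 13 from 46583070 to 46649768 and on chromosome 1 from 135108362 to 135154022, held 10 of 16 and 9 of 13 tested peaks. Their median sums were 113 and 96.4 CPM at days 14 and 21, against 61.1 and 48.9 CPM at days 2 and 3.

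The stretch with the most falls covers 36.0 kb of chromosome 12 from 16980613 to 17016595, with 13 of 22 tested peaks called lower. Its sums were 85.4, 99.2 and 111 CPM at days 14 and 21, against 105.5, 164 and 213 CPM at days 2 and 3. The last 9 tested peaks, from 17008003, were all called, with log2 fold changes from -2.86 to -1.07, and lie beside the strongest peak of the stretch, at 17004606 to 17007880. That peak did not pass, with means of 52.8 CPM at days 14 and 21 and 67.3 CPM at days 2 and 3 (log2 fold change -0.35, edgeR adjusted p 0.422). Day 7, at 163 ± 22.3 CPM (SD, n = 3), was still within the early range for this sum, and fibroblasts, at 71.1 ± 3.98 CPM, were below all 12 libraries.

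On chromosome 13 from 21972852 to 22029496, 11 of 18 tested peaks were called lower. The sums were 40.6, 54.1 and 67.7 CPM at days 14 and 21, against 93.5, 122 and 160 CPM at days 2 and 3, with no overlap. Fibroblasts had 116 ± 2.41 CPM and day 7 had 65.2 ± 5.60 CPM (SD, n = 3 each), so the fibroblast mean was within the early range and the day 7 mean within the late one. The other 3 stretches of falls held 11 of 28 tested peaks on chromosome 14 from 8750790, 10 of 21 on chromosome 1 from 92987996 and 10 of 17 on chromosome 13 from 96362645. Their median sums were 105, 70.7 and 70.0 CPM at days 14 and 21, against 156, 116 and 104 CPM at days 2 and 3. Fibroblasts stood at 123, 48.3 and 109 CPM.

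**Figure D5:**
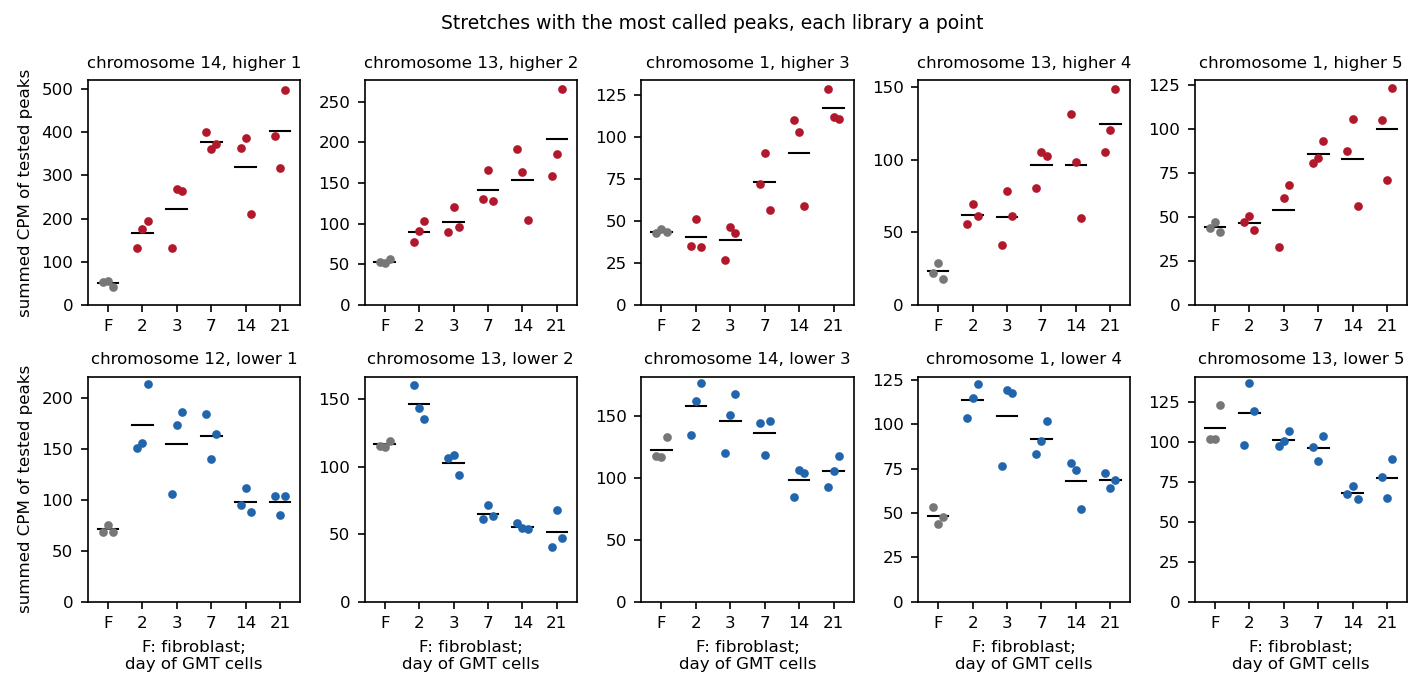
Summed CPM of all tested peaks of the 5 stretches with the most rises (top) and the most falls (bottom), for each library of fibroblasts (F) and of days 2, 3, 7, 14 and 21. Lines are means of 3. Fibroblasts lie below all other libraries in stretches 1, 2 and 4 of the rises, and within the early range in stretches 3 and 5 of the rises and 2 and 5 of the falls.

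Called peaks were spread over the 9 chromosomes held, with 2.23 to 2.90% of tested peaks higher and 3.27 to 4.11% lower on each. Rises were most frequent on chromosome 13 and falls on chromosome 11. Peaks of 3000 bases or more were called more often, 3.31% higher and 5.04% lower, than those under 500 bases, 2.18% and 3.91%. The shares called also depended on the level of the peak. Those higher and lower were 0.650 and 0.646% below an average log2 CPM of 0, 4.76 and 9.16% between 2 and 3, and 3.27 and 5.02% above 3. Weak peaks were thus called least often in both directions. Among the 13936 peaks above 3, the median level was 14.4 CPM at days 14 and 21, against 11.6 CPM in the 2 early libraries numbered 1 and 15.05 CPM in the other early ones. Among the 456 rises above 3 it was 14.8 CPM at days 14 and 21, against 6.71 and 9.28 CPM in these early libraries. Among the 699 falls above 3 it was 7.64 CPM at days 14 and 21, against 14.99 and 13.5 CPM, so there the libraries numbered 1 were not the lower ones. The part of these libraries in the calls for strong peaks was not tested peak by peak, and the total without them is given above.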

How the data were processed

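ATAC-seq counts of 18 libraries in 6 groups of 3 were used. Per the submitters' processing notes, the authors used Bowtie2, Picard, MACS2 and edgeR, without versions, on build mm9; alignment, duplicate and peak-calling settings are not stated in the labels or the file. The deposited values are whole-number counts of reads per region, not normalized. The table as held covers 1393120 regions of chromosomes 1, 10 to 16 and 17 up to 79.1 Mb, after an incomplete last line was dropped; positions are as deposited.

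Regions were kept by edgeR's filterByExpr (minimum count 10, minimum total 15), which left 144810 peaks with 79.2% of counts. One quasi-likelihood fit over all 18 libraries (edgeR 4.0.16, R 4.3.3, TMM scaling, 12 residual degrees of freedom) gave the contrast of the mean of days 14 and 21 minus the mean of days 2 and 3, with two-sided tests and Benjamini-Hochberg adjustment over all peaks. CPM use effective library sizes. SE were taken from the log2 fold change and its F value. Library measures were compared by exact permutation (scipy 1.17.1), and log2 CPM used a prior count of 2.

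The text names, in each direction, the 10 called peaks of largest fold change with no overlap of the pools and an average log2 CPM of at least 1, and the 5 called peaks of highest level, passing over peaks within 50 kb of one taken, and the 5 stretches with the most called peaks. Members, lists and rules were chosen with earlier results of these data known. Planned gene lists were not run, because no annotation of build mm9 was used here. Replicates were not duplicates: among pairs within a day of the 12 libraries, the closest had a chi-square per degree of freedom of 2.03. Which library went to which of the 2 sequencing cores named by the labels is not stated, and p-values measure the spread between these libraries. Alternatives were other scalings, filters, thresholds, tools (DESeq2 1.42.0, limma 3.58.1), fits, single days and left-out libraries.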

Additional observations from a re-analysis of the deposited data

Results flagged for a closer look

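In 90 groups of 6 libraries (named peaks, stretches and library measures, each at days 14 and 21 and at days 2 and 3), 5 values lay so far from the other 5 that the gap to the nearest exceeded the share of the group's range set by Dixon's critical value. That is 5.56% of the groups, and chance alone gives about 1 in 20.

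At days 14 and 21, day 21 replicate 2 had 62.47 CPM at the rise on chromosome 12 at 105491235, where the other late libraries had 25.3 to 39.07 CPM. Day 14 replicate 3 had 58.92 CPM in the stretch of rises on chromosome 1 from 72900519, where the others had 102.8 to 128.6 CPM. At days 2 and 3, day 2 replicate 2 had 48.66 CPM at the fall on chromosome 1 at 173411591, where the others had 2.374 to 16.5 CPM. Day 2 replicate 3 had 6.315 CPM at the fall on chromosome 12 at 17012062, where the others had 2.466 to 3.695 CPM. Day 3 replicate 3 had 23.22 M counts in all, against 2.293 to 10.1 M in the other early libraries. Both peaks on chromosome 12 and that on chromosome 1 kept their call without each of the 12 libraries in turn, with adjusted p up to 0.000251, 2.60e-05 and 0.00983 in edgeR.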

How the results depend on the processing

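The counts of called peaks, 3627 higher and 5304 lower, were 1319 and 2285 at an adjusted p under 0.01, 197 and 349 for changes tested against a minimum fold of 1.5, 1447 and 2608 with library totals alone, and 165 and 327 with no filter on low counts, where 1391749 regions were tested. For day 14 alone against days 2 and 3 they were 1705 and 2113, for day 21 alone 1511 and 1727, for both late days against day 2 alone 1839 and 3515, and against day 3 alone 547 and 1441, of which 27.5% were higher. With days 2 and 3 summed by replicate number, chosen after seeing the data, they were 1825 and 3335. Leaving out each library in turn gave 1847 to 3662 higher and 3285 to 5147 lower, with 36.0 to 42.3% of calls higher. RLE size factors, voom, DESeq2, the 12 libraries alone and 2 pooled groups kept both counts within 1.5 times. So did a minimum count of 30, with 3107 and 4524, but there 50376 peaks were tested and not 144810, so the shares called are not alike.

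Same-numbered libraries of different days deviated together in 2 of 18 pairs, with correlations of deviations from -0.157 to 0.321, so the numbers were not taken to pair samples. Both lie between days 2 and 3, where the 3 correlations were 0.321, 0.214 and 0.0985, the last just under the cut used. Differently numbered libraries of these days reached 0.220 (day 2 replicate 2 with day 3 replicate 3) and 0.114 (day 2 replicate 3 with day 3 replicate 2). Replicate 1 of each of these days correlated negatively with replicates 2 and 3 of the other. Whether those libraries share a culture or batch is not stated; with a replicate block 3542 peaks were higher and 5092 lower.

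Of the peaks called higher at day 14 than at day 2, the share with the same sign for day 21 over day 3 was 96.8% with library totals alone, and the shares of rises and falls were 98.2 and 98.9% in the other pairing and 87.1 and 91.0% without the early libraries numbered 1. Day 7 positions were 0.557 and 0.753 with library totals alone, and 0.629 for falls at a minimum count of 30. Leaving out each day 7 library in turn gave 0.716 to 0.850 for rises and 0.447 to 0.538 for falls; the pool libraries were not left out singly for this value. With a gap of 10 kb the chromosome 14 stretch of falls had a log2 ratio of -0.79. The sign of differences in library measures, none of which passed a test, turned in total counts (0.730 M more at days 14 and 21, from -1.59 to 3.56 M without single libraries, -2.49 M without the early libraries numbered 1), in scaling factor (-0.0316, from -0.0904 to 0.0162, and 0.0692) and in the share of counts in peaks of 3000 bases or more (-3.12 percentage points, 0.309 without the single highest region, chosen after seeing the data). Of 810 values of the 30 named peaks under alternatives, 731 kept the call, 79 lost it and none changed sign; the cause of these changes was not tested.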

Other observations

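On chromosome 17 a named fall at 29473279 and a named rise at 29559699 start 86.4 kb apart, and both had little signal in fibroblasts, 0.228 ± 0.135 and 0.0912 ± 0.158 CPM (SD, n = 3). The fall had 0, 0.860 and 1.54 CPM (lowest, median and highest library) at days 14 and 21, against 2.89, 5.62 and 6.40 CPM at days 2 and 3, while the rise had the opposite order, with day 7 at 2.30 ± 1.38 and 6.68 ± 2.82 CPM. The pair was picked out after its values were seen. A called fall within 100 kb was found for 1813 of the 3627 rises (49.99%) and for 59.4% of all tested peaks. Among all tested peaks each called fall counted as its own neighbour, which a rise cannot do. The 2 shares are thus not like measures, and no difference is read from them.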
